A study of Homo sapiens with 4 samples.

Results

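The genes described here encode the machinery that removes cytoplasmic and nuclear RNA in human cells, together with the proteins that steer it to particular transcripts. They were taken as a fixed list of 56 symbols, namely the RNA exosome, the CCR4-NOT complex, the BTG/TOB proteins, other deadenylases and poly(A)-binding proteins, the decapping factors, the 5′-3′ exonucleases, the nonsense-mediated decay (NMD) factors and the ZFP36 proteins. All 56 were found by symbol among the 64252 Ensembl gene IDs of the deposited table, and all 56 passed the filter on low counts that left 18817 genes for testing. RNA was sequenced from J.gamma1 cells given 10 µM FB23-2 for 48 h (2 libraries) and from J.gamma1 cells given DMSO vehicle at under 0.1% for 48 h (2 libraries, called control). J.gamma1 is a mutant derivative of Jurkat, a human T-cell acute lymphoblastic leukaemia line, and lacks PLCG1 protein, a phospholipase of T-cell receptor signalling. All 4 libraries come from this single line, with replicates that the labels call independent. FB23-2 inhibits FTO, the enzyme that removes N6-methyladenosine from RNA.

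Most mRNA decay begins when the poly(A) tail is shortened, by PAN2-PAN3 and then by CCR4-NOT. The shortened mRNA is either decapped by DCP2 and degraded from its 5′ end by XRN1, or degraded from its 3′ end by the exosome, a ring of subunits that carries separate nucleases. NMD sends transcripts with premature stop codons into this machinery, while ZFP36 proteins bind AU-rich elements (AREs) in 3′ untranslated regions and recruit CCR4-NOT. In lymphocytes the BTG and ZFP36 families are known for holding cells in quiescence.

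The FB23-2 libraries held 37804516 and 33983246 counts and the control libraries 24615359 and 34897961. Levels are given in CPM, counts scaled to the library's size after TMM adjustment. A positive log2 fold change (± SE) means more RNA with FB23-2 than in control, and a gene was called at an edgeR quasi-likelihood adjusted p below 0.05. All 12 T-lineage markers looked up, CD3D, CD3E and LCK among them, were detected, with a summed level of 1608 to 1683 CPM with FB23-2 and 2166 to 2193 CPM in control. The part of this lower sum in other results was not tested. B cell markers summed to 46.1 to 47.8 CPM with FB23-2 and 42.0 to 48.4 CPM in control, epithelial markers to 5.02 to 5.57 CPM with FB23-2 and 3.28 to 3.83 CPM in control, and fibroblast markers to 6.37 to 8.03 CPM with FB23-2 and 7.49 to 8.05 CPM in control. Myeloid markers summed to 1.64 to 2.43 CPM with FB23-2 and 1.71 to 2.41 CPM in control, and erythroid markers to at most 0.259 CPM in any library. RNA of PLCG1 was present, with 295 and 291 CPM in FB23-2 libraries, against 265 and 265 CPM in control libraries (log2 fold change 0.14 ± 0.04, edgeR adjusted p = 0.0125). In bulk RNA, fewer cells that express a gene and less of its RNA per cell cannot be told apart.

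Decay genes moved in both directions. Of the 9 decapping members 6 were called higher, as were all 4 BTG/TOB genes, with 0 lower in either group. By contrast, 9 of 13 exosome genes and 7 of 11 CCR4-NOT genes were called lower. The 5′-3′ exonucleases and the ZFP36 genes each had 1 call in each direction, and 6 of 9 NMD genes were not called. Of 56 members, 17 were called higher and 22 lower, which is 30.4% and 39.3%, against 21.8% and 20.3% of all tested genes. In either direction this was 69.6% of members, against 42.1% of all tested genes and 60.1% of the 9638 tested genes whose mean level was at least that of the lowest member (14.0 CPM). Of those 9638 genes, 32.5% were called higher and 27.7% lower. Against these, the members' share called higher was slightly smaller and their share called lower larger, which was not tested. Below, this set is called genes at the members' level, although it shares only their lower bound. The median member had 76.6 CPM. The groups did not overlap for 51 members (91.1%), against 70.8% of all tested genes. This share was not determined for genes at the members' level. Changes were modest, since the median absolute log2 fold change was 0.32 among the 39 called members and 0.40 among all called genes with at least 14.0 CPM. The median over all members was -0.05, against 0.00 over all tested genes. The summed level of the members was 6747 and 6764 CPM with FB23-2 and 6882 and 6888 CPM in control. With 1 library left out, 14 to 17 members were called higher and 12 to 18 lower; the 12 came without control replicate 2.

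**Figure D1:**
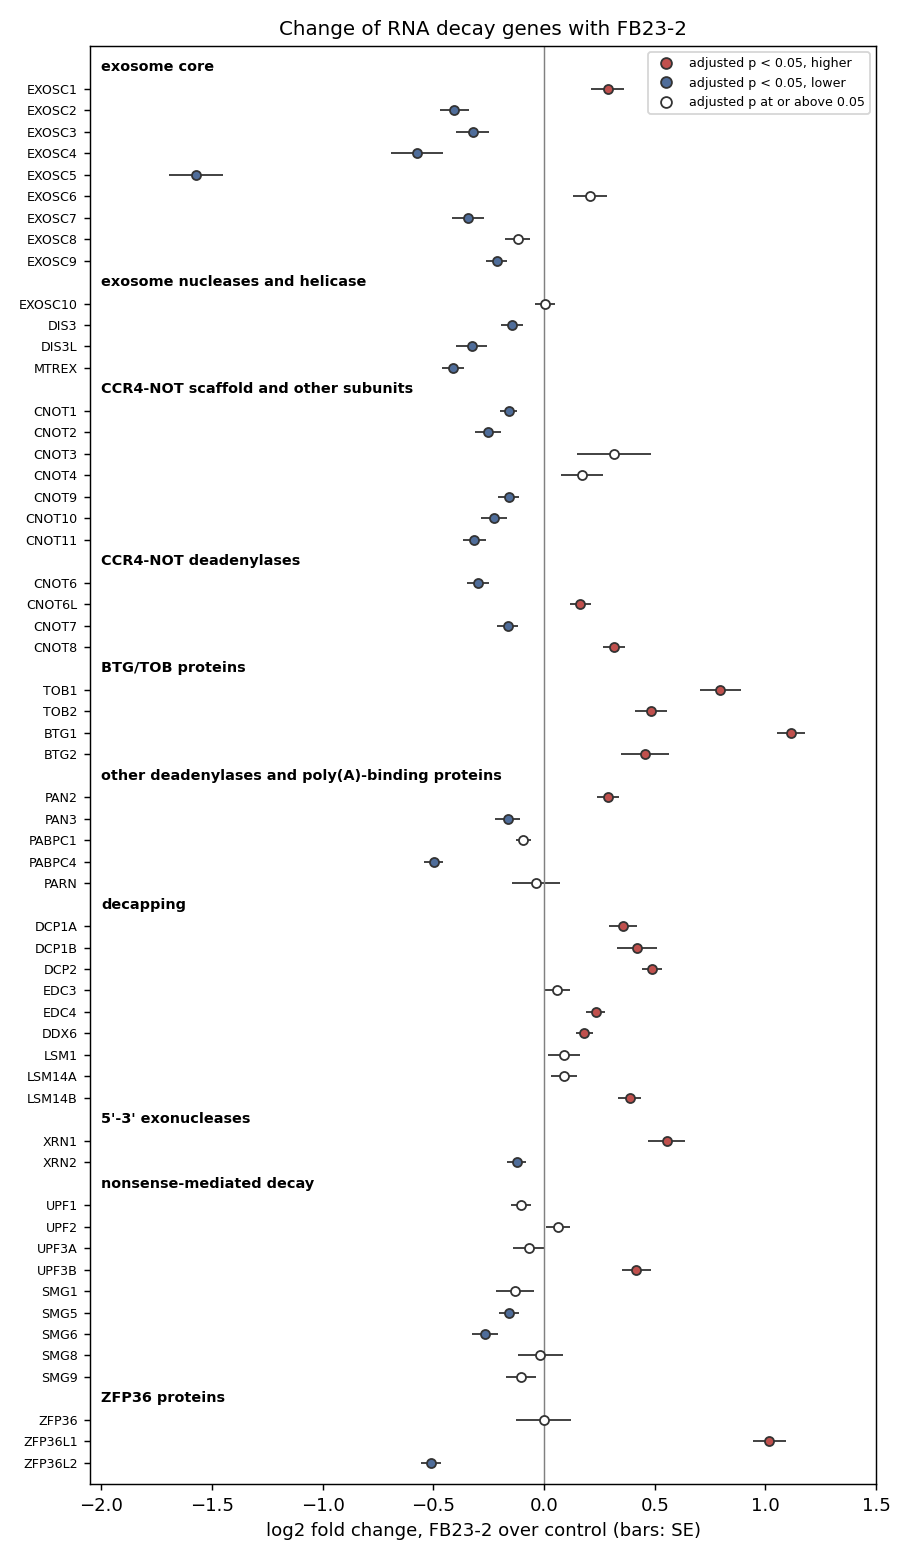
Log2 fold change (FB23-2 over control, x axis) with its SE for each of the 56 decay genes, grouped by role; filled points have an edgeR adjusted p below 0.05. EXOSC5 lies farthest to the left (-1.57) and BTG1 (1.11) and ZFP36L1 (1.02) farthest to the right.

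The start regions of the members with the largest fall and the 2 largest rises are printed with a single searched motif marked in each. Each is the RefSeq window (GRCh38.p14) from 250 bases before to 50 after an annotated start, on the gene's strand, 5′ to 3′. All motifs were searched on both strands. Those found but not marked are GGGCGG in the EXOSC5 and BTG1 windows and TATAAA in the BTG1 window. Capitals mark the motif chosen for each gene. For EXOSC5 (chr19:41397310-41397609, minus strand) this is CACGTG, the E-box bound by MYC with MAX, whose first bases lie at -89 and +15 from the start. For BTG1 (chr12:92145797-92146096, minus strand) it is GTAAACA, a forkhead factor motif, found as its reverse complement at -209. For ZFP36L1 (chr14:68793367-68793666, minus strand, 1 of 2 windows listed for this gene) it is TGACGTCA, the cyclic AMP response element, at -52. The other ZFP36L1 window (chr14:68796194-68796493), at the annotated 5′ end of the gene, is not printed and holds none of the motifs searched.
EXOSC5: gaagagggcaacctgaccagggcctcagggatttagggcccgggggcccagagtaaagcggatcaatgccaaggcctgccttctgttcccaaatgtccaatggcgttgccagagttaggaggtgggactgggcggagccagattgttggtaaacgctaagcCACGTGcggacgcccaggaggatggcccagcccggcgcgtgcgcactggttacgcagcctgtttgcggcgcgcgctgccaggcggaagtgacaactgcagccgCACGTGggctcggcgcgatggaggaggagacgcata
BTG1: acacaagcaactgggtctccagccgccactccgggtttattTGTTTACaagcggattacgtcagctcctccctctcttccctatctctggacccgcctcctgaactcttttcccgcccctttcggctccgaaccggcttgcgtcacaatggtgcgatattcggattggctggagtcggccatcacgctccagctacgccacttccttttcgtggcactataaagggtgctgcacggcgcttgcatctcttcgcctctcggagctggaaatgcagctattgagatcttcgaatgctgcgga
ZFP36L1: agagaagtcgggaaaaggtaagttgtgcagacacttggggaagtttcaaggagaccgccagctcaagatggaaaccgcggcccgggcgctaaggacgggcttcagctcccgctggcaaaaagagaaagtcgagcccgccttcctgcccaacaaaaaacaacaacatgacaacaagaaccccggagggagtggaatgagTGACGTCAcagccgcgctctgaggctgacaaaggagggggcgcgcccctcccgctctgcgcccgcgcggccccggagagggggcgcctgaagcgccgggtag

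Windows were listed for 46 of the 56 members. These 46 hold 67 windows. CACGTG occurred in 6 of the 67 (8.96%), against 7.26% of all 35116 windows, and at least 2 times in 0.664% of all. Among members it was found in windows of CNOT4, UPF2, SMG6, EXOSC5 and XRN2, of which EXOSC5, SMG6 and XRN2 were called lower and CNOT4 and UPF2 were not called. Of 154 tested genes with at least 2 copies in a window, 25.3% were called lower and 27.9% higher. Of 1305 genes with 1 copy these shares were 33.0% and 21.8%, and of all 11700 tested genes with a window 22.9% and 26.8%. The difference between these shares was not tested. GTAAACA occurred in 3 of the 67 (4.48%), against 3.42% of all windows, in those of EXOSC2, CNOT2 and BTG1. Of these genes, EXOSC2 and CNOT2 were called lower and BTG1 higher. TGACGTCA also occurred in 3 of the 67 (4.48%), against 1.85% of all windows, in those of ZFP36L1, called higher, and XRN2, called lower. The other 3 motifs searched were the ETS motif CCGGAAG (7 of 67 member windows or 10.4%, against 10.3% of all), the GC box GGGCGG (52 of 67 or 77.6%, against 45.0%) and TATAAA (2 of 67 or 2.99%, against 11.5%). All windows were counted whether or not their gene was tested here, whereas every member was tested. These differences are therefore not shown to be particular to the members, and they were not tested. The motif matches describe the sequence and are not evidence of binding.

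Of 13 RNA exosome genes, 9 were called lower and 1, EXOSC1, higher, which is 69.2% and 7.69%, against 20.3% and 21.8% of all tested genes and 27.7% and 32.5% of those at the members' level. Between 6 and 9 were called lower with 1 library left out, the 6 without control replicate 2, and EXOSC1 was not called higher without FB23-2 replicate 1 or control replicate 1. EXOSC5, a ring subunit also known as RRP46, had 9.27 and 9.37 CPM in the FB23-2 libraries, against 30.7 and 25.3 CPM in the control libraries. Both FB23-2 libraries lay far below both control libraries, and the level was 2.97 times lower with FB23-2 (log2 fold change -1.57 ± 0.12, edgeR adjusted p = 1.19e-05). EXOSC5 lies at chromosome 19, 41386374 to 41397479 of hg38 (ENSG00000077348). Its call held in all 12 alternative settings. EXOSC4, another ring subunit, had 13.2 and 11.9 CPM in the FB23-2 libraries, against 17.3 and 19.9 CPM in the control libraries. The groups did not overlap (log2 fold change -0.57 ± 0.12, edgeR adjusted p = 0.00352), but 1 of 12 settings ended the call (edgeR adjusted p = 0.0595 without control replicate 2; range 0.00111 to 0.0595 in 12 settings).

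The other core subunits changed less. EXOSC2 (-0.41 ± 0.06) and EXOSC3 (-0.32 ± 0.08), which belong to the RNA-binding cap on the ring, and the ring subunit EXOSC7 (-0.35 ± 0.07) fell, with edgeR adjusted p values of 0.00081, 0.00703 and 0.00411. EXOSC9, also in the ring, fell to 173 ± 6.54 CPM with FB23-2, against 201 ± 6.77 CPM in control (SD, n = 2 each; log2 fold change -0.21 ± 0.05, edgeR adjusted p = 0.00522), a call that 1 of 12 settings ended (edgeR adjusted p = 0.077 without control replicate 2; range 6.36e-05 to 0.077 in 12 settings). EXOSC1, the third cap subunit, had 43.0 and 42.9 CPM in the FB23-2 libraries, against 33.4 and 36.7 CPM in the control libraries. It rose (log2 fold change 0.29 ± 0.07, edgeR adjusted p = 0.0118), though not with every library left out (edgeR adjusted p = 0.0614 without FB23-2 replicate 1 and 0.107 without control replicate 1; range 0.00579 to 0.107 in 12 settings). EXOSC6 (0.21 ± 0.08) and EXOSC8 (-0.12 ± 0.06) were not called, with edgeR adjusted p values of 0.0565 and 0.132; EXOSC6 passed in 3 settings (edgeR adjusted p = 0.0148 without control replicate 1, 0.022 under library size scaling and 0.0329 under a replicate block; range 0.0148 to 0.44 in 12 settings). EXOSC8 passed only with length and GC trends removed (edgeR adjusted p = 0.0155, range 0.0155 to 0.451 in 12 settings). EXOSC8 shares 8.32% of its exon bases with SUPT20H, and EXOSC9 5.39% with CCNA2, both on the opposite strand. SUPT20H and CCNA2 were called higher (0.34 and 0.16 on the log2 scale), and the part this plays was not tested.

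Level per length of annotated exon compares genes only roughly, because the length merges the exons of all annotated isoforms. On this scale EXOSC5 had 6.23 and 6.30 CPM per kb in the FB23-2 libraries, against 20.6 and 17.0 CPM per kb in the control libraries. In control only 2 of the other 8 core subunits had higher means, EXOSC9 at 42.6 ± 1.44 CPM per kb and EXOSC8 at 19.6 ± 0.323 CPM per kb (SD, n = 2). Its control libraries overlapped those of EXOSC8 and EXOSC2. With FB23-2 it ranked last, below EXOSC7 at 8.35 and 7.77 CPM per kb. The other core subunits kept within 8.06 to 36.7 CPM per kb with FB23-2 and 10.3 to 42.6 CPM per kb in control, as group means.

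**Figure D2:**
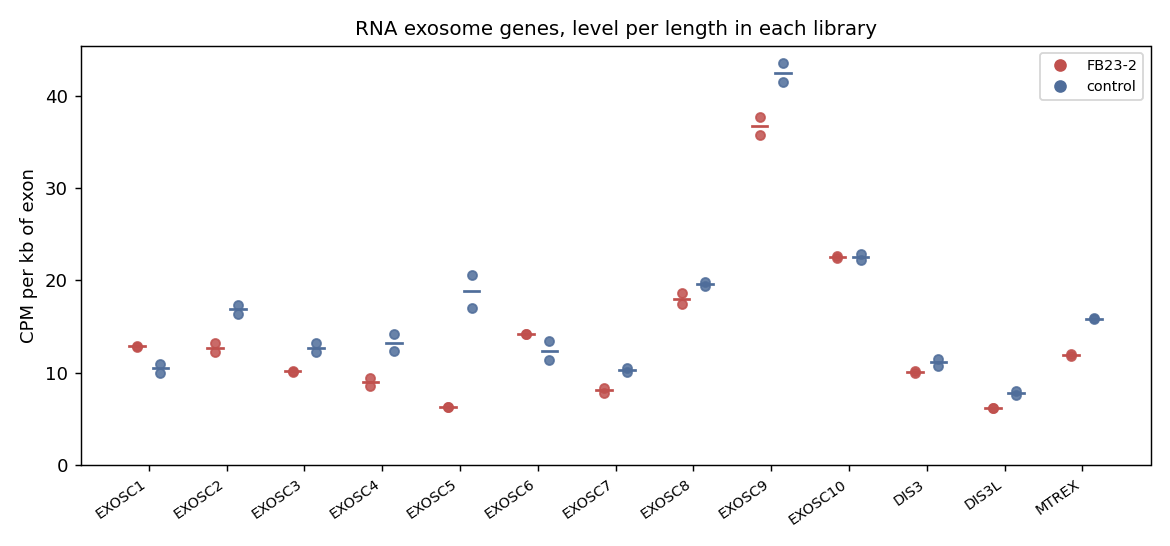
Level per length (CPM per kb of exon, y axis) of the 13 exosome genes in each FB23-2 and control library (points; lines are group means). EXOSC5 has 6.23 and 6.30 CPM per kb with FB23-2, against 20.6 and 17.0 CPM per kb in control, while EXOSC10 is nearly level between the groups.

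Among the exosome's nucleases, DIS3L, the cytoplasmic form, averaged 33.5 ± 0.154 CPM with FB23-2 and 42.1 ± 1.53 CPM in control (SD, n = 2 each; log2 fold change -0.33 ± 0.07, edgeR adjusted p = 0.00472). MTREX, the nuclear RNA helicase that feeds substrates to the exosome, averaged 78.3 ± 1.48 CPM with FB23-2 and 104 ± 0.532 CPM in control (SD, n = 2 each; log2 fold change -0.41 ± 0.05, edgeR adjusted p = 0.000161). Both fell in all 12 alternative settings. DIS3, the nuclear form, passed narrowly (log2 fold change -0.15 ± 0.05, edgeR adjusted p = 0.0423) and lost its call in 6 settings (adjusted p = 0.0988 without FB23-2 replicate 1, 0.101 without FB23-2 replicate 2, 0.321 without control replicate 2, 0.161 under library size scaling, 0.102 with no filter and 0.14 in DESeq2; range 0.000671 to 0.321 in 12 settings). DIS3 shares 10.9% of its exon bases with BORA on the opposite strand, which had 46.2 and 42.7 CPM with FB23-2, against 32.0 and 34.7 CPM in control; the part this plays was not tested. EXOSC10, the nuclear exonuclease also known as RRP6, averaged 136 ± 0.931 CPM with FB23-2 and 135 ± 2.84 CPM in control (SD, n = 2 each; log2 fold change 0.00 ± 0.04, edgeR adjusted p = 0.969).

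In CCR4-NOT, 7 of 11 subunit genes were called lower (63.6%, against 20.3% of all tested genes) and 2 higher (18.2%, against 21.8%). Of genes at the members' level, 27.7% were called lower and 32.5% higher. The deadenylase paralogs of CCR4-NOT were called in opposite directions, but only the calls of CNOT8 and CNOT6 held in all 12 settings. The count called lower was 5 on leaving out FB23-2 replicate 1, FB23-2 replicate 2 or control replicate 1 and 3 on leaving out control replicate 2. Those called higher were 1, 1, 1 and 3 in the same 4 settings. CNOT8 had 122 and 116 CPM in the FB23-2 libraries, against 94.0 and 97.0 CPM in the control libraries. It was higher in both FB23-2 libraries (log2 fold change 0.32 ± 0.05, edgeR adjusted p = 0.000855), and the call held in all 12 settings. CNOT7, the paralog that occupies the same position in the complex, had 151 and 157 CPM in the FB23-2 libraries, against 177 and 169 CPM in the control libraries. It was lower in both FB23-2 libraries (log2 fold change -0.16 ± 0.05, edgeR adjusted p = 0.0183), a call lost in 3 settings (edgeR adjusted p = 0.0717 without FB23-2 replicate 1, 0.112 without control replicate 1 and 0.0729 under library size scaling; range 0.000177 to 0.112 in 12 settings).

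The other deadenylase pair was likewise called in opposite directions, but the call of CNOT6L was not stable. CNOT6 had 87.6 and 84.8 CPM in the FB23-2 libraries, against 104 and 107 CPM in the control libraries. The groups did not overlap, and CNOT6 fell in all 12 settings (log2 fold change -0.30 ± 0.05, edgeR adjusted p = 0.00114). CNOT6L had 139 and 144 CPM in the FB23-2 libraries, against 123 and 129.6 CPM in the control libraries. It was called higher (log2 fold change 0.16 ± 0.05, edgeR adjusted p = 0.0222), but with length and GC trends removed its log2 fold change was 0.00 and the call was lost in 6 settings (edgeR adjusted p = 0.0546 without FB23-2 replicate 1, 0.0973 without FB23-2 replicate 2, 0.225 without control replicate 1, 0.0718 with upper quartile scaling, 0.0628 with no filter and 0.949 with length and GC trends removed; range 0.00778 to 0.949 in 12 settings). The share of CNOT8 in the summed level per length of CNOT7 and CNOT8 was 69.2% and 67.2% with FB23-2, against 59.6% and 61.5% in control. The share of CNOT6L in that of CNOT6 and CNOT6L was 52.7% and 54.5% with FB23-2, against 45.3% and 45.9% in control. The size of such shares depends on the merged exon length, 10943 bases for CNOT7 and 3930 for CNOT8. In CPM, CNOT7 lay above CNOT8 in every library. Shares did not overlap between groups in either pair; with 2 libraries a group an exact two-sided permutation test cannot go below p = 0.333, so they are given without a test.

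Subunits without deadenylase activity were lower or not called. CNOT11, which pairs with CNOT10 at one end of the complex, averaged 66.4 ± 1.22 CPM with FB23-2 and 82.6 ± 0.697 CPM in control (SD, n = 2 each; log2 fold change -0.31 ± 0.05, edgeR adjusted p = 0.00115) and fell in all 12 settings. The scaffold CNOT1 averaged 449.6 ± 15.1 CPM with FB23-2 and 503 ± 7.66 CPM in control (SD, n = 2 each; log2 fold change -0.16 ± 0.04, edgeR adjusted p = 0.00887), and its call was lost without either control library (edgeR adjusted p = 0.0686 without control replicate 1 and 0.0598 without control replicate 2; range 0.000588 to 0.0686 in 12 settings). CNOT2 (-0.25 ± 0.06; edgeR adjusted p = 0.0564 without FB23-2 replicate 2 and 0.0984 without control replicate 2; range 9.09e-05 to 0.0984 in 12 settings), CNOT10 (-0.23 ± 0.06; edgeR adjusted p = 0.0538 without FB23-2 replicate 1 and 0.0875 without control replicate 2; range 0.00208 to 0.0875 in 12 settings) and CNOT9 (-0.16 ± 0.05; adjusted p = 0.108 without FB23-2 replicate 2, 0.208 without control replicate 2, 0.084 under library size scaling, 0.0774 with no filter and 0.0637 in DESeq2; range 0.00399 to 0.208 in 12 settings) were also called lower, each with the call lost in the settings given. CNOT3, a partner of CNOT2, had 31.8 and 34.3 CPM in the FB23-2 libraries, against 21.2 and 30.8 CPM in the control libraries. Its control libraries differed widely, and it was not called (log2 fold change 0.32 ± 0.17, edgeR adjusted p = 0.195), except where control replicate 2 was left out or replicates were blocked (edgeR adjusted p = 0.0061 without control replicate 2 and 0.0295 under a replicate block; range 0.0061 to 0.573 in 12 settings). CNOT4, an E3 ubiquitin ligase that associates with the complex, was not called (log2 fold change 0.17 ± 0.10, edgeR adjusted p = 0.186).

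All 4 BTG/TOB genes rose, where 21.8% of all tested genes and 32.5% of those at the members' level were called higher. Of the BTG/TOB genes, 3 were called on leaving out FB23-2 replicate 1 or control replicate 1. These proteins bind the CNOT7 and CNOT8 deadenylases and are known to slow proliferation, and in mice BTG1 and BTG2 keep naive T cells quiescent. BTG1 had 101 and 94.3 CPM in the FB23-2 libraries, against 43.6 and 46.3 CPM in the control libraries. Both FB23-2 libraries were more than 90 CPM and both control libraries less than 50 CPM, a 2.17-fold rise (log2 fold change 1.11 ± 0.06, edgeR adjusted p = 2.1e-06). BTG1 lies at chromosome 12, 92140278 to 92145897 of hg38 (ENSG00000133639). TOB1, which also contacts poly(A)-binding protein, had 30.8 and 28.5 CPM in the FB23-2 libraries, against 17.8 and 16.5 CPM in the control libraries. The groups were clear of each other (log2 fold change 0.80 ± 0.09, edgeR adjusted p = 0.000142). TOB1 shares 11.1% of its exon bases with TOB1-AS1 on the opposite strand, which stayed between 4.03 and 4.73 CPM in the 4 libraries.

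The remaining members of the family rose by smaller amounts. TOB2 had 45.4 and 47.1 CPM in the FB23-2 libraries, against 32.1 and 33.8 CPM in the control libraries. The rise was called (log2 fold change 0.48 ± 0.07, edgeR adjusted p = 0.000509) and, like those of BTG1 and TOB1, held in all 12 settings. BTG2 had 24.4 and 23.5 CPM in the FB23-2 libraries, against 15.5 and 19.0 CPM in the control libraries. Control replicate 2 lay closest to the FB23-2 libraries without overlapping them (log2 fold change 0.46 ± 0.11, edgeR adjusted p = 0.0084), and the call was lost without FB23-2 replicate 1 or control replicate 1 (edgeR adjusted p = 0.0564 without FB23-2 replicate 1 and 0.0707 without control replicate 1; range 0.0042 to 0.0707 in 12 settings). The share of BTG1 in the summed level per length of BTG1 and BTG2 was 70.1% and 69.5% with FB23-2, against 61.5% and 58.0% in control.

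**Figure D3:**
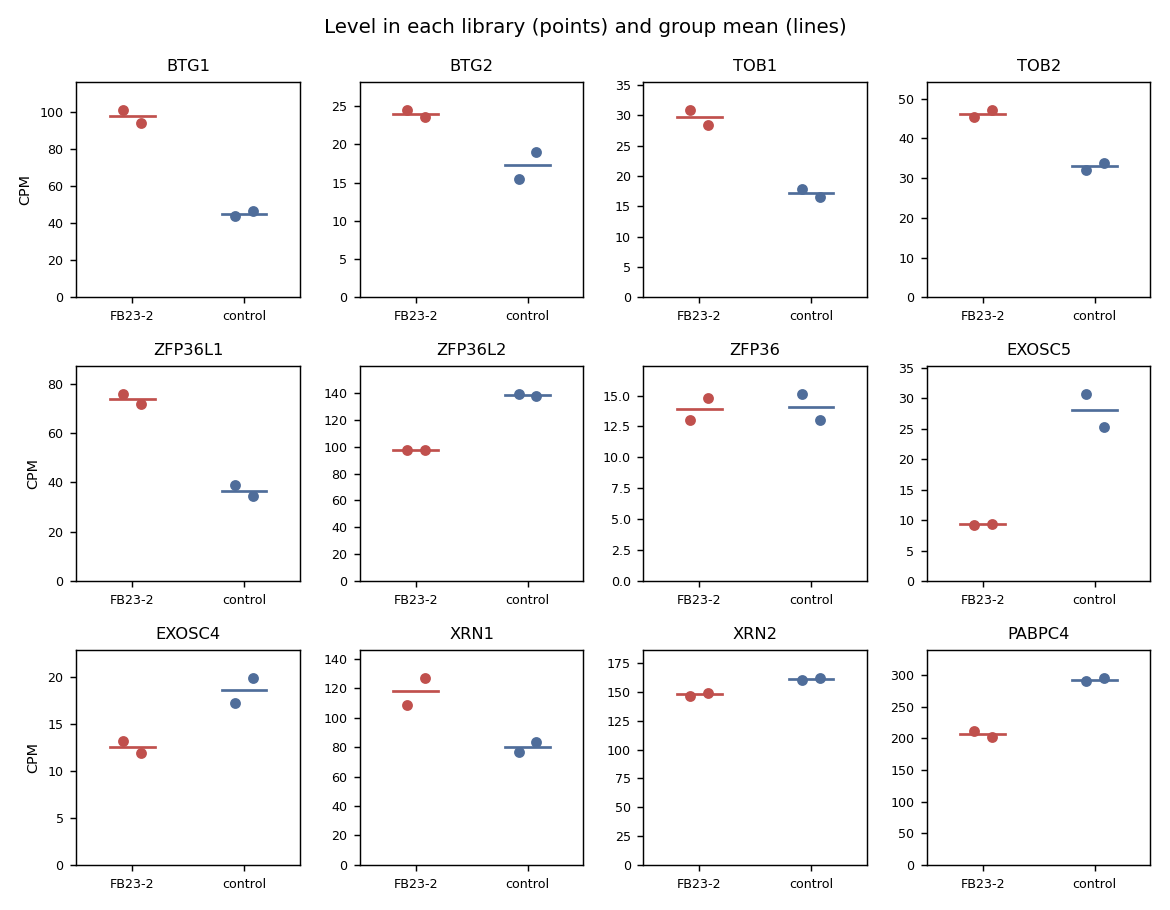
CPM (y axis, from 0) of 12 decay genes in each FB23-2 library (left) and control library (right), with group means as lines. BTG1 and ZFP36L1 are about 2.17 and 2.02 times as high with FB23-2 as in control, EXOSC5 is 2.97 times lower, and the libraries of ZFP36 overlap.

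Among the other deadenylases, PAN2, the catalytic subunit of PAN2-PAN3, averaged 99.0 ± 0.631 CPM with FB23-2 and 81.0 ± 1.44 CPM in control (SD, n = 2 each). It rose (log2 fold change 0.29 ± 0.05, edgeR adjusted p = 0.00135) in all 12 settings. Its partner PAN3 was called lower (log2 fold change -0.17 ± 0.06, edgeR adjusted p = 0.0399), with the call lost in 6 settings (adjusted p = 0.09 without FB23-2 replicate 1, 0.115 without FB23-2 replicate 2, 0.345 without control replicate 2, 0.134 under library size scaling, 0.107 with no filter and 0.123 in DESeq2; range 0.000712 to 0.345 in 12 settings). PARN, a poly(A) nuclease known for trimming small noncoding RNAs, was not called (log2 fold change -0.04 ± 0.11, edgeR adjusted p = 0.818), and its groups overlapped.

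The poly(A)-binding proteins coat the tail that these enzymes shorten. PABPC4 had 212 and 202 CPM in the FB23-2 libraries, against 290.0 and 295 CPM in the control libraries. Both FB23-2 libraries were well below both control libraries, and the fall held in all 12 settings (log2 fold change -0.50 ± 0.04, edgeR adjusted p = 1.82e-05). PABPC1, the most abundant decay gene here, averaged 1257 ± 15.2 CPM with FB23-2 and 1341 ± 34.8 CPM in control (SD, n = 2 each) and was not called (log2 fold change -0.09 ± 0.03, edgeR adjusted p = 0.0558), although 4 settings called it (edgeR adjusted p = 0.0105 with upper quartile scaling, 0.031 with the stricter filter, 0.0187 under a replicate block and 0.0268 with length and GC trends removed; range 0.0105 to 0.281 in 12 settings). The share of PABPC4 in their summed level per length was 10.5% and 10.2% with FB23-2, against 13.0% and 13.6% in control. The 4 pseudogenes named for PABPC1 that had counts held at most 49 each in any library.

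Decapping factors had 6 of 9 genes called higher and 0 lower, against 21.8% and 20.3% of all tested genes and 32.5% and 27.7% of those at the members' level. In each of the 9 both FB23-2 libraries lay above both control libraries, as they did for 36.3% of all tested genes. For genes at the members' level that share was not determined. DCP2, the enzyme that removes the cap, had 245 and 253 CPM in the FB23-2 libraries, against 173 and 181 CPM in the control libraries. The 1.40-fold rise (log2 fold change 0.49 ± 0.04, edgeR adjusted p = 2.66e-05) held in all 12 settings. Its activators DCP1A, averaging 109 ± 5.26 CPM with FB23-2 and 84.5 ± 5.81 CPM in control (SD, n = 2 each; log2 fold change 0.36 ± 0.06, edgeR adjusted p = 0.00143), and DCP1B, averaging 28.3 ± 1.79 CPM with FB23-2 and 21.2 ± 0.488 CPM in control (SD, n = 2 each; log2 fold change 0.42 ± 0.09, edgeR adjusted p = 0.00452), rose as well. The share of DCP1A in the summed level per length of DCP1A and DCP1B was 72.7% and 75.7% with FB23-2, against 74.4% and 75.6% in control, and these overlapped.

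EDC4, the scaffold on which DCP1 and DCP2 assemble, rose (log2 fold change 0.23 ± 0.04, edgeR adjusted p = 0.00191), as did LSM14B, a component of cytoplasmic processing bodies, averaging 143 ± 6.71 CPM with FB23-2 and 109.7 ± 1.55 CPM in control (SD, n = 2 each; log2 fold change 0.39 ± 0.05, edgeR adjusted p = 0.000252). DDX6, the helicase that links CCR4-NOT to decapping, averaged 326 ± 1.49 CPM with FB23-2 and 288 ± 5.52 CPM in control (SD, n = 2 each; log2 fold change 0.18 ± 0.04, edgeR adjusted p = 0.00403), and its call was lost in 2 settings (edgeR adjusted p = 0.0651 without control replicate 2 and 0.193 with length and GC trends removed; range 0.000528 to 0.193 in 12 settings). The decapping enhancer EDC3 (0.06 ± 0.06), LSM1 of the ring that binds shortened tails (0.09 ± 0.07) and LSM14A (0.09 ± 0.06) were not called. LSM1 shares 11.7% of its exon bases with BAG4, and EDC3 13.7% with CLK3, both on the opposite strand and both called higher (0.45 and 0.36 on the log2 scale). The share of LSM14B in the summed level per length of LSM14A and LSM14B was 66.4% and 67.1% with FB23-2, against 61.6% and 62.3% in control.

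The 5′-3′ exonucleases differed. XRN1, which degrades decapped mRNA in the cytoplasm, had 109 and 127 CPM in the FB23-2 libraries, against 76.6 and 83.6 CPM in the control libraries. FB23-2 replicate 2 was the highest library and the groups did not overlap; the rise (log2 fold change 0.55 ± 0.08, edgeR adjusted p = 0.00108) held in all 12 settings. XRN2, the nuclear enzyme that acts in transcription termination, had 147 and 149 CPM in the FB23-2 libraries, against 160.2 and 162 CPM in the control libraries. The small fall was called narrowly (log2 fold change -0.12 ± 0.04, edgeR adjusted p = 0.0419) and lost in 7 settings, among them each one that left out a library (adjusted p = 0.0955 without FB23-2 replicate 1, 0.0865 without FB23-2 replicate 2, 0.0995 without control replicate 1, 0.21 without control replicate 2, 0.194 under library size scaling, 0.0846 with no filter and 0.147 in DESeq2; range 0.00931 to 0.21 in 12 settings). The share of XRN1 in the summed level per length of XRN1 and XRN2 was 17.6% and 19.6% with FB23-2, against 12.1% and 12.9% in control.

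**Figure D4:**
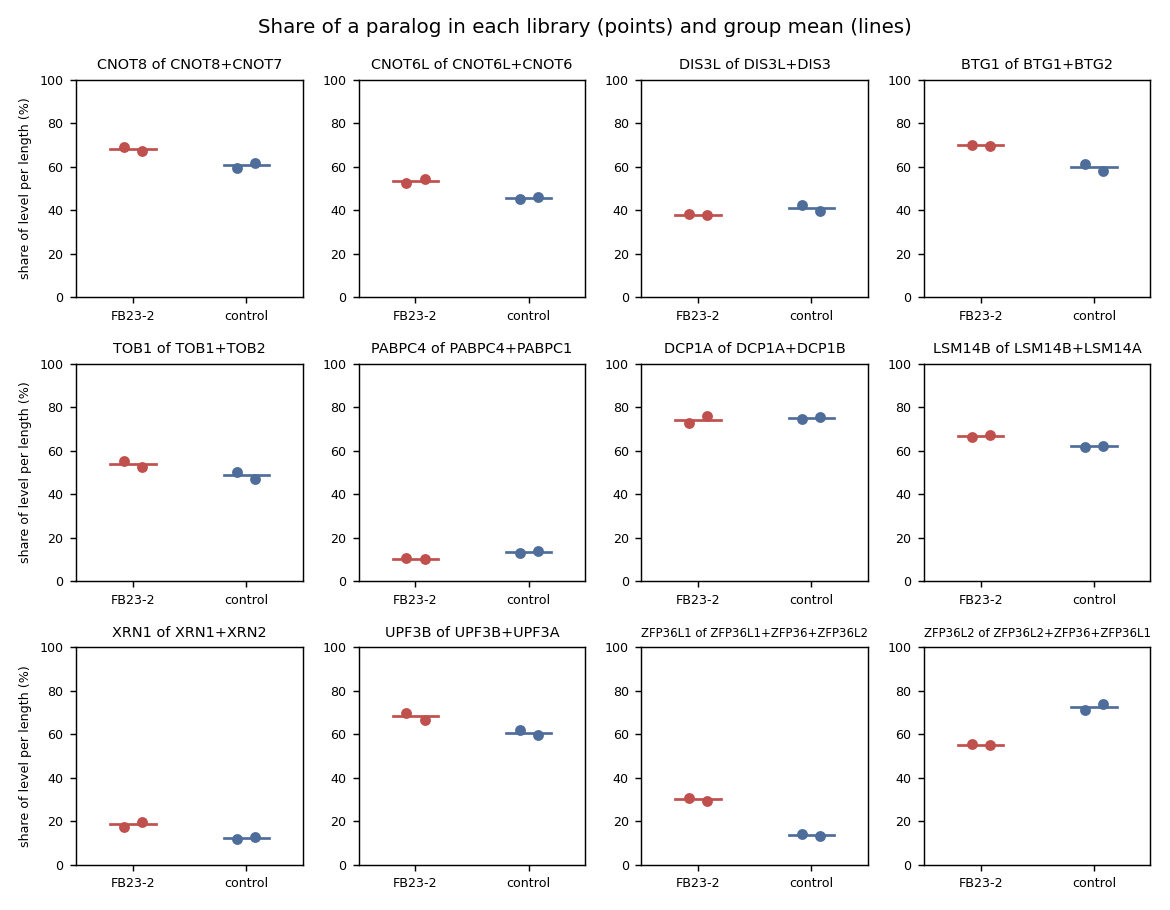
Share (%, y axis from 0 to 100) of one paralog in the summed level per length of its family, in each FB23-2 library (left) and control library (right), with group means as lines. ZFP36L1 makes up 31.0% and 29.3% of its family with FB23-2 and 14.3% and 13.3% in control, and only the shares of DCP1A overlap between the groups.

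Of 9 NMD genes, 1 was called higher and 2 lower (11.1% and 22.2%). The backgrounds are 21.8% and 20.3% of all tested genes and 32.5% and 27.7% of those at the members' level. The share of NMD genes called lower is near the 20.3%. The count called lower was 3 on leaving out FB23-2 replicate 1 and 1 on leaving out either control library. UPF3B, which bridges the exon junction complex to UPF2, had 66.7 and 61.5 CPM in the FB23-2 libraries, against 47.9 and 48.2 CPM in the control libraries. It rose in all 12 settings (log2 fold change 0.42 ± 0.07, edgeR adjusted p = 0.00075). Its paralog UPF3A, which can replace it, was not called (log2 fold change -0.07 ± 0.07, edgeR adjusted p = 0.482), and the share of UPF3B in their summed level per length was 69.9% and 66.7% with FB23-2, against 62.0% and 59.6% in control. SMG6, the endonuclease that cuts NMD targets, averaged 60.4 ± 2.84 CPM with FB23-2 and 72.7 ± 1.79 CPM in control (SD, n = 2 each; log2 fold change -0.27 ± 0.06, edgeR adjusted p = 0.00587). SMG6 fell in all 12 settings, but shares 22.9% of its exon bases with HIC1 on the opposite strand, which had 11.5 and 9.14 CPM with FB23-2 and 13.7 and 13.9 CPM in control. SMG5, an adaptor for phosphorylated UPF1, was called lower (log2 fold change -0.16 ± 0.05, edgeR adjusted p = 0.019), with the call lost in 6 settings (adjusted p = 0.0978 without FB23-2 replicate 2, 0.111 without control replicate 1, 0.0551 without control replicate 2, 0.0699 under library size scaling, 0.0604 with no filter and 0.0539 in DESeq2; range 0.0059 to 0.111 in 12 settings).

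The central NMD factors were not called. The helicase UPF1 averaged 225 ± 8.75 CPM with FB23-2 and 242 ± 4.31 CPM in control (SD, n = 2 each; log2 fold change -0.10 ± 0.04, edgeR adjusted p = 0.0835), and 4 settings called it lower (edgeR adjusted p = 0.0369 without FB23-2 replicate 1, 0.0228 with upper quartile scaling, 0.0361 with the stricter filter and 0.0448 under a replicate block; range 0.0228 to 0.396 in 12 settings). UPF2 (0.06 ± 0.05), SMG8 (-0.02 ± 0.10) and SMG9 (-0.10 ± 0.07), of which the last 2 regulate the UPF1 kinase SMG1, had edgeR adjusted p values of 0.383, 0.918 and 0.26. SMG1 had 222 and 265 CPM in the FB23-2 libraries, against 266 and 268 CPM in the control libraries. FB23-2 replicate 1 lay below the other 3 libraries, and SMG1 was called only without FB23-2 replicate 2 and with length and GC trends removed (log2 fold change -0.13 ± 0.09, edgeR adjusted p = 0.286; edgeR adjusted p = 0.00425 without FB23-2 replicate 2 and 0.025 with length and GC trends removed; range 0.00425 to 0.683 in 12 settings). The level of SMG1 is uncertain, because 7 near-identical pseudogenes took counts equal to 54.3% and 52.1% of those of SMG1 with FB23-2 and 60.4% and 59.8% in control.

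The ZFP36 genes split. ZFP36L1 had 75.8 and 72.0 CPM in the FB23-2 libraries, against 39.0 and 34.5 CPM in the control libraries. This was a 2.02-fold rise with no overlap (log2 fold change 1.02 ± 0.07, edgeR adjusted p = 7.27e-06), and it held in all 12 settings. ZFP36L1 lies at chromosome 14, 68787660 to 68796253 of hg38 (ENSG00000185650). ZFP36L2 had 97.2 and 97.3 CPM in the FB23-2 libraries, against 139 and 138 CPM in the control libraries. It fell in all 12 settings (log2 fold change -0.51 ± 0.05, edgeR adjusted p = 2.48e-05). In mice, loss of both of these genes in thymocytes is known to lead to T-cell leukaemia driven by Notch1. ZFP36, also called tristetraprolin, had 13.0 and 14.8 CPM in the FB23-2 libraries, against 15.1 and 13.0 CPM in the control libraries. Those libraries overlapped, and it was not called (log2 fold change -0.00 ± 0.13, edgeR adjusted p = 0.991). The share of ZFP36L1 in the summed level per length of the family was 31.0% and 29.3% with FB23-2, against 14.3% and 13.3% in control. That of ZFP36L2 was 55.4% and 55.2% with FB23-2, against 71.4% and 73.9% in control.

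Other genes of the pathway were read from lists of partners that are not members. Of 82 tested partners, 16 were called higher and 28 lower, with a median log2 fold change of -0.10. These shares, 19.5% and 34.1%, compare with 21.8% and 20.3% of all tested genes and with 32.5% and 27.7% of those at the members' level. The same 4 values are the background of each list that follows. Some listed genes lie below the members' level, among them SAMD4A, PTGS2, CXCL8 and CCND1. Exosome cofactors had 1 of 17 called higher and 5 lower (5.88% and 29.4%), and the share called lower is near the background at the members' level. The 5 became 3 on leaving out FB23-2 replicate 2 or either control library. The cytoplasmic Ski helicase SKIC2 rose (0.81 ± 0.15), while SRRT, which links capped nuclear RNA to the exosome, fell (-0.89 ± 0.04), averaging 124 ± 0.142 CPM with FB23-2 and 231 ± 0.964 CPM in control (SD, n = 2 each). The 3′-5′ exonuclease DIS3L2 (-0.81 ± 0.11) and the nuclear exosome adaptor ZFC3H1 (-0.43 ± 0.05) fell too. These calls held in all 12 settings.

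Partners of deadenylation had 3 of 18 called higher and 5 lower (16.7% and 27.8%), with 27.7% lower at the members' level. The 5 became 3 on leaving out FB23-2 replicate 1 or either control library, and the 3 higher became 6 under library size scaling. PAIP2B (0.67 ± 0.08) and PAIP2 (0.27 ± 0.05), which displace poly(A)-binding protein, and TNRC6B (0.31 ± 0.06), which recruits CCR4-NOT to microRNA targets, rose. The nuclear poly(A)-binding protein PABPN1 (-0.31 ± 0.04) and the mitochondrial deadenylase PDE12 (-0.26 ± 0.05) fell. NOCT (-0.43 ± 0.13) was called lower but lost the call without FB23-2 replicate 1 (adjusted p = 0.122), control replicate 1 (0.0787) or control replicate 2 (0.146) and in DESeq2 (0.122; highest of 12 settings 0.146).

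Decapping partners had 3 of 13 called higher and 5 lower (23.1% and 38.5%, against 21.8% and 20.3% of all tested genes), unlike the 9 decapping members, of which 0 were lower; that difference was not tested. PNRC2 (0.38 ± 0.04), PNRC1 (0.37 ± 0.08) and PATL1 (0.27 ± 0.04), which act with DCP1 and DCP2, rose. NUDT3 (-0.76 ± 0.05), another decapping enzyme, and LSM7 (-0.71 ± 0.06) and LSM4 (-0.37 ± 0.05), subunits shared by the cytoplasmic ring and the spliceosomal ring, fell.

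NMD and exon junction partners had 2 of 15 called higher and 9 lower (13.3% and 60.0%, against 21.8% and 20.3% of all tested genes). The 2 became 1 on leaving out FB23-2 replicate 1 or either control library. RUVBL1 (-0.76 ± 0.06) and RUVBL2 (-0.55 ± 0.05), ATPases that also serve many other complexes, and the exon junction subunit MAGOHB (-0.73 ± 0.08) fell. PYM1 (0.79 ± 0.11), which disassembles exon junction complexes, rose. The exon junction subunit CASC3 (0.17 ± 0.04) was called higher, but 4 settings ended the call, with edgeR adjusted p values of 0.114 (FB23-2 replicate 1 left out), 0.0705 and 0.105 (control replicates 1 and 2 left out) and 0.0530 (no filter), the highest of 12 being 0.114.

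Other RNA-binding regulators of decay had 7 of 19 called higher and 4 lower (36.8% and 21.1%). These shares compare with 32.5% and 27.7% at the members' level and with 21.8% and 20.3% of all tested genes. The 4 became 7 with length and GC trends removed. CPEB4 (0.80 ± 0.09), which binds cytoplasmic polyadenylation elements, STAU2 (0.58 ± 0.04), which binds double-stranded RNA, and RC3H2 (0.55 ± 0.06), a Roquin protein that recruits CCR4-NOT, rose. The ARE-binding protein HNRNPD (-0.45 ± 0.04), the stress granule protein G3BP1 (-0.45 ± 0.04) and SAMD4B (-0.23 ± 0.05) fell. All 6 calls held in the 12 settings.

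Transcripts known as substrates of these pathways did not move one way. Of 14 transcripts reported as NMD substrates, 4 were called higher and 8 lower (28.6% and 57.1%, against 21.8% and 20.3% of all tested genes). The 4 became 2 on leaving out either control library. DDIT3 averaged 40.4 ± 0.119 CPM with FB23-2 and 5.85 ± 0.111 CPM in control (SD, n = 2 each), with a log2 fold change of 2.78 ± 0.10, and ATF3 (1.29 ± 0.09) rose too, whereas the noncoding RNAs SNHG15 (-1.66 ± 0.07), GAS5 (-1.39 ± 0.05) and SNHG12 (-0.88 ± 0.14) fell. MAP3K14 (0.40 ± 0.10) was called higher but not without control replicate 1 (edgeR adjusted p = 0.0714) or control replicate 2 (0.0502; highest of 12 settings 0.0714). Many of these transcripts also answer to stress or growth signals, and NMD itself was not measured.

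Of 14 transcripts known to carry AREs, 10 were tested, 4 of them called higher and 3 lower (40.0% and 30.0%, against 32.5% and 27.7% of genes at the members' level and 21.8% and 20.3% of all tested genes). The 4 became 2 without FB23-2 replicate 2 or control replicate 1 and 1 without control replicate 2. VEGFA (0.73 ± 0.07) rose, and NOTCH1 (-0.47 ± 0.06) and MYC (-2.55 ± 0.06) fell, calls that held in all 12 settings. PIM1 (0.50 ± 0.13) was called higher but not in 3 settings, with edgeR adjusted p values of 0.0758 (FB23-2 replicate 2 left out) and 0.0545 and 0.0969 (control replicates 1 and 2 left out), the highest of 12 being 0.0969. BCL2 (0.26 ± 0.08) was called higher but not in 3 settings, with edgeR adjusted p values of 0.118 (FB23-2 replicate 2 left out), 0.189 (control replicate 2 left out) and 0.0510 (no filter), the highest of 12 being 0.189. IL2 and IL3 had 0 counts in all 4 libraries, and TNF and CSF2 had at most 11 counts in any library and were not tested; 3 counts in a library correspond to 0.0785 to 0.125 CPM.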

How the data were processed

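The whole-number counts per Ensembl gene that the authors deposited as 1 table were used as they stand. The submitters' processing notes name HISAT2 2.2.0, StringTie and hg38; the sources used here name no counting step, annotation release or strand setting, so overlapping genes on opposite strands cannot be told apart. Symbols came from a separate name list, and coordinates, exon lengths and overlaps from GENCODE 29 on hg38. With edgeR 4.0.16, genes that passed filterByExpr (minimum count 10) were scaled by TMM and tested with glmQLFit (robust) and glmQLFTest in R 4.3.3, with Benjamini-Hochberg adjustment over 18817 genes. The SE is the absolute log2 fold change over the root of F. In counts simulated for this comparison on 18817 genes, 78% of genes changed 2-fold and 28% of those changed 1.5-fold were recovered. Of those changed 1.25-fold, 4% were recovered. Few genes were changed in the simulation and all had a common dispersion, whereas 42.1% of tested genes were called in the data. Recovery in the data can therefore differ. Chi-square per degree of freedom was 6.69 and 7.48 between replicates and 74.6 to 82.3 between groups, so no library was a copy. Per the labels' protocols, replicates were independent biological samples. Levels per length divide CPM by kilobases of merged exons. Ranks and shares between genes depend on this length, which can exceed that of the isoforms present.

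The members and gene lists were chosen with earlier results of these data known, so no list test was made. Members were named with values per library where called with an absolute log2 fold change of at least 0.5, with their paralogs; others were added after their values were seen. From each list of partners, up to 3 called genes per direction with the largest change, a mean of at least 5 CPM and no overlap were named. The floor of 3 counts covers counting error alone.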

Additional observations from a re-analysis of the deposited data

How the results depend on the processing

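Across 12 alternative settings (RLE, upper quartile or library size scaling, DESeq2, 2 other filters, a replicate block, removal of length and GC trends, and leaving out each library), 584 of 672 member values kept their direction and their side of the threshold. Of the 39 called members, 24 kept the call in every setting, 13 higher and 11 lower, and each of the other 15 lost it without at least 1 library. Between 14 and 17 members were called higher and 12 to 18 lower with 1 library left out. Signs changed in 20 values, 1 of them of a called member: CNOT6L had -0.00440 with length and GC trends removed. EXOSC10 had -0.00791 with RLE scaling, -0.00970 with the stricter filter, -0.0341 with length and GC trends removed, -0.0377 with upper quartile scaling and -0.0233 to 0.0130 with 1 library left out. With length and GC trends removed, LSM14A had -0.0286, UPF2 -0.0455 and ZFP36 0.0489. With library size scaling, PARN had 0.00919, SMG8 0.0300 and ZFP36 0.0445. With 1 library left out the ranges were -0.201 to 0.163 for PARN, -0.00246 to 0.162 for LSM14A, -0.155 to 0.0178 for UPF3A, -0.193 to 0.125 for SMG8 and -0.120 to 0.0800 for ZFP36. Causes were not tested. With a replicate block, 19 members were called higher and 24 lower, and 4237 and 4031 genes in all, against 4099 and 3820; the numbers name replicates only, and deviations of same-numbered libraries correlated at 0.06 over genes. Of 168 counts for the lists of partners and substrates, 146 stayed within 1.5 times. The other 22 fell on the exosome cofactors (7), partners of deadenylation (5), NMD and exon junction partners (4), other regulators (1), NMD substrates (2) and ARE transcripts (3). Those not given with the lists were exosome cofactors at 3 higher with library size scaling, 3 lower in DESeq2 and 8 lower with the stricter filter or upper quartile scaling, partners of deadenylation at 3 lower in DESeq2, and NMD partners at 1 higher with no filter.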
